A study of Rattus norvegicus with 22 samples.

Results

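Interstitial fibroblasts were examined by single-nucleus RNA-Seq (snRNA-Seq), in which droplets tag the transcripts of each nucleus with a barcode, across 5 treatments of the rat kidney. They are the 7724 nuclei that the deposited annotation names Fibroblast, of 310282 nuclei in all, from 22 libraries of whole kidney. They made up 2.49% of all nuclei and 5.61% of the 137757 nuclei that were not proximal tubule (non-PT nuclei, that is, without the proximal convoluted type PCT, the proximal straight type PST and the injured type iPT). Among the 16 annotated types they ranked 8th by number, and between 7th and 12th in each library.

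The animals were male Sprague-Dawley rats. Control rats had a sham operation and no DOCA (deoxycorticosterone acetate, a mineralocorticoid). All the other rats had 1 kidney removed, received 50 mg/kg DOCA under the skin each week and drank salt water. For the amiloride rats the removal is given in the submitters' treatment notes, while the study's methods name it for the other DOCA-treated groups only. The DOCA group received vehicle by gavage, and the remaining groups received in addition finerenone at 10 mg/kg/d (a nonsteroidal antagonist of the mineralocorticoid receptor), spironolactone at 50 mg/kg/d (a steroidal antagonist) or amiloride at 20 mg/kg/d (a blocker of the epithelial sodium channel). The difference between DOCA and control therefore combines uninephrectomy, DOCA and salt, which cannot be told apart here. Control, DOCA, finerenone and spironolactone had 5 libraries each and amiloride had 2. The labels give all control and amiloride samples as 6 weeks, and 4 samples as 6 weeks and 1 as 3 weeks in each of the DOCA, finerenone and spironolactone groups. The treatment of each library was taken from the annotation, and the numbers of libraries equal the numbers of samples, but no library was matched to a sample or a week. Weeks are therefore combined, and libraries were taken as the replicates on the assumption that each is 1 rat, so that the p-values below measure only the spread between these libraries. The stem of a library name, without its tags, recurred for 5 stems, for 2 of them within a treatment (the control libraries of 1238 and 14747 nuclei and the spironolactone libraries of 13610 and 33683) and for 4 across treatments, 3 of which join DOCA and finerenone, and whether a shared stem marks a shared animal is not given in the sources used here. Libraries are named here by treatment and number of nuclei.

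Renal fibroblasts lie in the interstitium between tubules and capillaries and lay down the collagen matrix. Pdgfra (a receptor for platelet-derived growth factor), Col1a1 (the α1 chain of type I collagen) and Dcn (decorin, a small matrix proteoglycan) are the usual markers. In chronic kidney disease, matrix-producing stromal cells, among them the contractile myofibroblasts, expand and scar the interstitium, which is why the fibroblast fraction is of interest in a model of hypertensive kidney injury. Gene values were not analysed here, so the label could not be checked against these 3 markers, and it was checked only by position on the deposited UMAP, a map of the nuclei on 2 axes with no unit. A share of nuclei is also relative: fewer fibroblasts and more of other types cannot be told apart in it.

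On that map the fibroblasts formed 1 main group. Of the 30 nearest neighbors of a fibroblast nucleus, 98.07% on average were fibroblasts, and 7260 fibroblasts (93.99%) had fibroblasts only. The nearest type by median position was the myofibroblast, at a distance of 3.14 UMAP units, followed by proliferating tubule at 4.89, lymphocytes at 7.07 and macrophages at 7.29. Endothelial nuclei lay at 14.4 units. A tail of the main group reached toward the myofibroblasts, yet myofibroblasts were only 0.235% of the neighbors, below PCT at 0.607%, loop of Henle (LOH) at 0.293% and macrophages at 0.281%. Thus 144 fibroblasts (1.86%) are counted here as lying apart, having more than 50% of their neighbors from other types. The leading neighbor type was PCT for 46 of them, macrophage for 28, LOH for 24, myofibroblast for 16 and lymphocyte for 13. These 144 nuclei carry the label Fibroblast but have mostly neighbors of other types, and some of them border the tail of the main group. With no gene values their label was not tested further. Since the map was computed from the same expression data as the annotation, position is no independent test of the label.

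**Figure D1:**
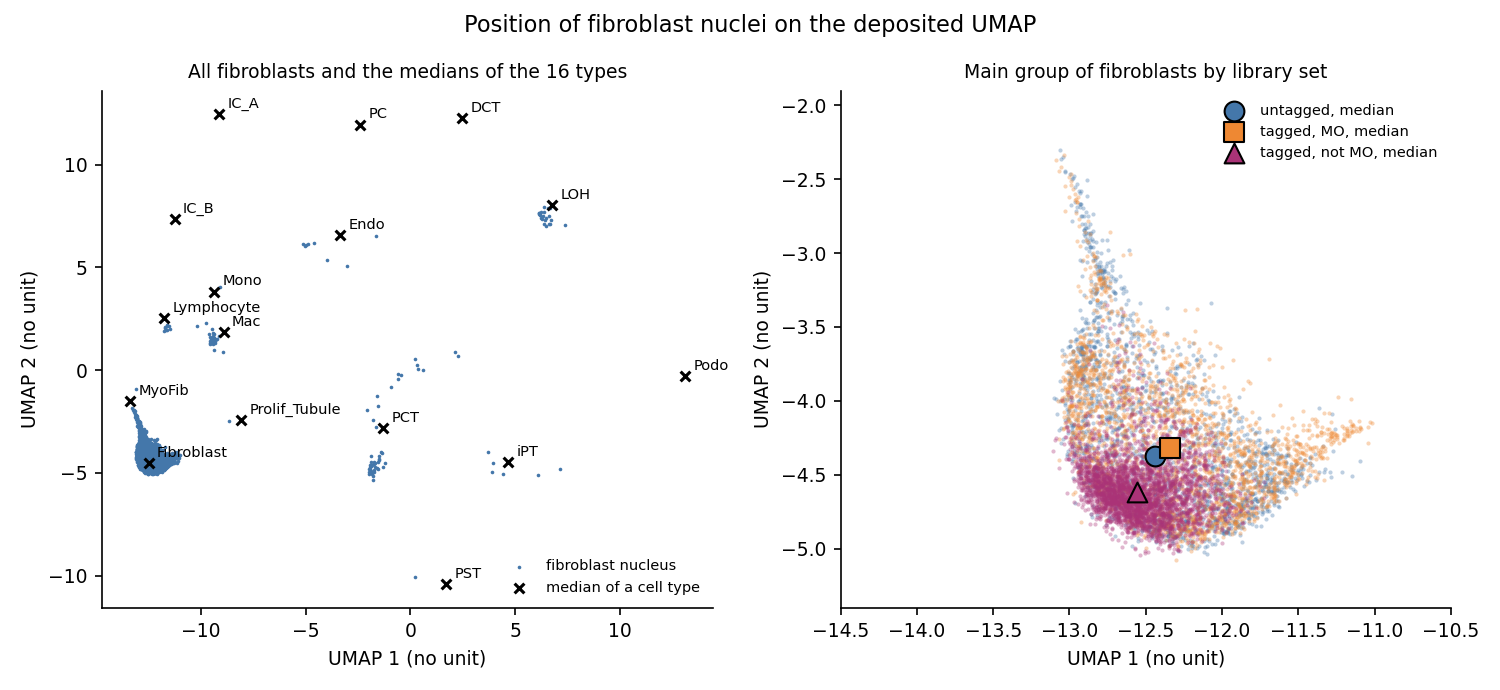
Left, UMAP positions (no unit) of the 7724 fibroblast nuclei as points and the median of each of the 16 types as crosses. Right, the 7580 nuclei of the main group colored by library set, with the median of each set, the tagged libraries that are not MO (purple) lying lowest on UMAP 2.

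Libraries differed in how their names were tagged, and this is described before the treatments because fibroblasts moved with it. The names of 11 libraries carry no tag, 5 carry an Old or New tag followed by MO, and 6 carry an Old or New tag only. The meaning of Old, New and MO is not given in the sources used here. The study's methods describe as many samples made with a Multiome kit (RNA and open chromatin from the same nuclei) as there are MO libraries, but do not say which, and the labels list this kit for more samples than that. Each treatment had 1 MO library and 1 tagged library without the mark, except finerenone, which had 2 of the latter. No amiloride library was untagged. The 6 tagged libraries without the MO mark held 11144 to 48403 nuclei (median 26307), against 759 to 13610 (median 6564) in the untagged libraries. These sets were noticed after the values were seen by library, so the differences between them are given without a test.

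First, the fibroblast share of all nuclei was compared between DOCA and control rats. In the control group the shares were 0.766%, 3.25%, 3.76%, 4.07% and 4.68%. The DOCA libraries had 1.77%, 2.21%, 2.40%, 2.76% and 4.41%. The groups overlapped, and 1 control library, that of 18931 nuclei, was lower than every DOCA library while the other 4 lay above 4 of the 5 DOCA libraries. The means were 3.31% ± 1.51 in control (SD, n = 5) and 2.71% ± 1.02 in DOCA (SD, n = 5). The difference of -0.597 percentage points (95% interval -2.29 to 1.39) was smaller than either SD and did not pass the exact permutation test over libraries (two-sided p = 0.476, 0.544 adjusted over the 16 types). The interval holds a fall by 2.29 points as well as a rise by 1.39 points from the control share of 3.31%, so these data leave a wide range for the difference. Without the control library of 18931 nuclei the difference was -1.23 points (exact p = 0.0794). Exact permutation within the 3 library sets, with the same difference, gave p = 0.4. With the 2 control libraries of a common name stem merged it was -0.280 points (exact p = 0.778). Without the control library of 1238 nuclei it was -0.252 points, and in the tagged libraries alone the DOCA mean lay above that of control.

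The same test was run on every annotated type, which gives a background for the fibroblast result. In DOCA against control, 5 of 16 types (31.2%) had an unadjusted exact p under 0.05, and fibroblasts were not among them. After Benjamini-Hochberg adjustment 0 of 16 types passed (0%). With limma on the logit of the shares, 3 types passed unadjusted and 2 after adjustment, again without the fibroblasts, whose limma p adjusted over the 16 types was 0.910. Libraries did not overlap between DOCA and control in 2 of 16 types (12.5%), whereas those of the fibroblasts did.

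**Figure D2:**
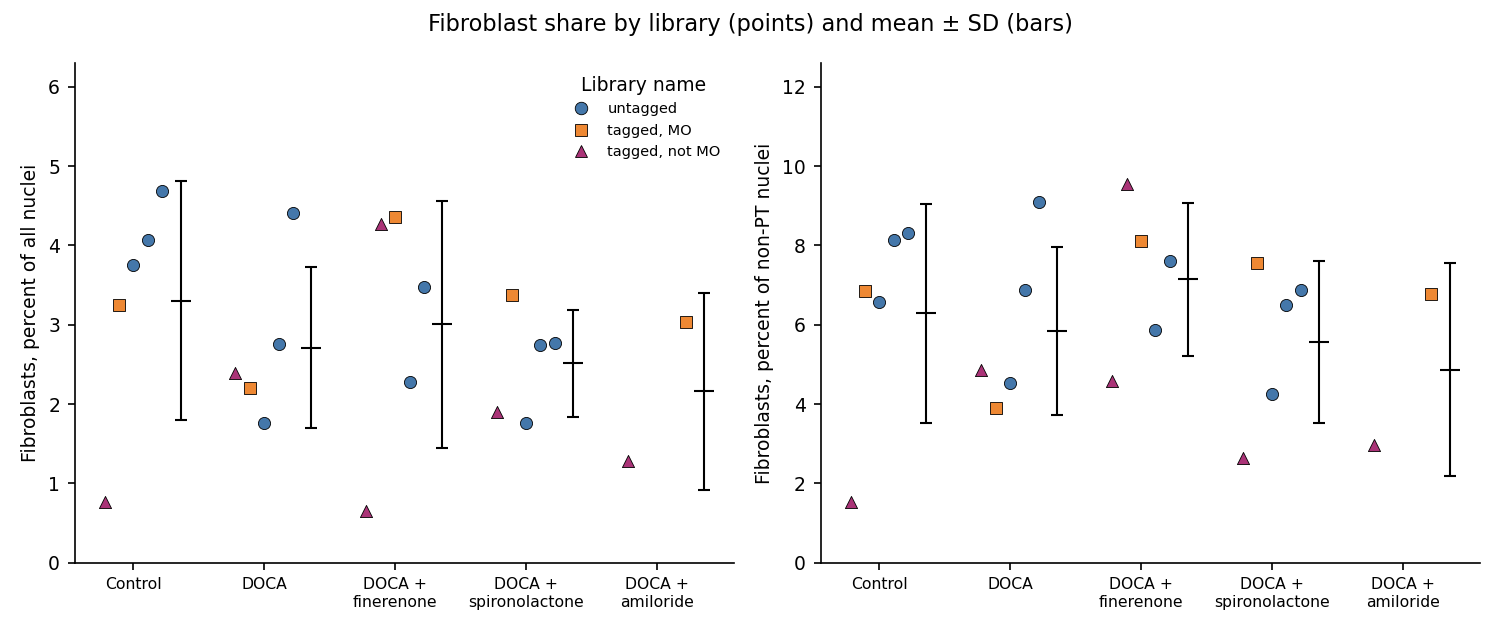
Fibroblasts as a percent of all nuclei (left) and of non-PT nuclei (right) in each of the 22 libraries, by treatment, with the mean ± SD beside the points and the symbol giving the library set. The groups overlap on both scales, and the lowest libraries, 0.655% (finerenone) and 0.766% (control) on the left, are both tagged without the MO mark.

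Next, the drugs were compared with DOCA alone. Finerenone libraries had fibroblast shares of 0.655%, 2.28%, 3.47%, 4.27% and 4.36%, so this group held both the library with the lowest share of the 22 and 2 of the 5 highest. Their mean was 3.01% ± 1.56 (SD, n = 5), 0.300 points above DOCA (95% interval -1.84 to 2.07, exact permutation p = 0.754). The library at 0.655% was the largest of all, with 48403 nuclei of which 85.7% were proximal tubule, whereas the proximal tubule took 28.4% to 61.1% of the other 21 libraries. Without it the difference from DOCA was 0.888 points (exact p = 0.254). The direction was not stable: the difference was -0.0373 points without the finerenone library of 13679 nuclei, -0.0165 without that of 40267 and -0.162 without the MO libraries.

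Spironolactone gave 1.76%, 1.90%, 2.75%, 2.77% and 3.38%, the narrowest spread of the groups with 5 libraries. The mean of 2.51% ± 0.673 (SD, n = 5) differed from DOCA by -0.197 points (95% interval -1.57 to 0.992, exact permutation p = 0.754), which turned to 0.228 without the DOCA library of 8300 nuclei. All 5 libraries lay within the range of the DOCA libraries apart from the lowest, which was 1.76% against 1.77%. With the 2 spironolactone libraries of a common name stem merged, the difference was -0.020 points (exact permutation p = 1).

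Amiloride had 1.28% and 3.04%, a mean of 2.16% ± 1.24 (SD, n = 2). The difference from DOCA was -0.548 points with an exact permutation p of 0.667, and 2 libraries against 5 cannot go below 0.0952. With only the amiloride library at 3.04% kept it was 0.329 points, and with only that at 1.28% it was -1.43 points. No interval was computed for it.

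Finerenone was also set beside spironolactone, the nonsteroidal beside the steroidal antagonist, at the different doses used (10 and 50 mg/kg/d). The finerenone mean was 0.497 points higher (95% interval -1.29 to 2.08, exact permutation p = 0.524), and without the finerenone library of 48403 nuclei 1.09 points higher (exact p = 0.0952) but without that of 13679 only 0.160 points higher (exact p = 0.841). The difference did not exceed the spread between libraries, and the interval does not show that the drugs act alike. The group means thus ran from control (3.31%) through finerenone, DOCA and spironolactone to amiloride (2.16%), and none of the 5 differences tested passed. At an unadjusted exact p under 0.05 the background was 12.5% of types for finerenone against DOCA and 0% for each of the other 3 contrasts between DOCA-treated groups. Libraries did not overlap in 6.25% of types for finerenone against DOCA, in 6.25% for amiloride against DOCA and in 0% for the other 2, and those of the fibroblasts overlapped in every contrast.

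Because the proximal tubule fraction differed so much between libraries, the share of non-PT nuclei was examined as well. Control libraries had 1.54%, 6.58%, 6.84%, 8.14% and 8.32% fibroblasts among non-PT nuclei. In the DOCA group the values were 3.89%, 4.53%, 4.86%, 6.87% and 9.08%. Apart from the control library of 18931 nuclei, all control values lay above the 3 lowest DOCA values and below the highest. The means were 6.29% ± 2.76 in control and 5.85% ± 2.13 in DOCA (SD, n = 5 each), a difference of -0.438 points (95% interval -3.61 to 3.14, exact permutation p = 0.786). Its direction was not stable: without the control library of 18931 nuclei it was -1.62 points, without that of 1238 nuclei 0.0708, and with the 2 control libraries of a common name stem merged 0.0374. Here 4 of 13 non-PT types (30.8%) had an unadjusted exact p under 0.05 and 0 of 13 (0%) an adjusted one, and limma called 4 and 2.

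Finerenone had the highest non-PT mean, with 4.59%, 5.87%, 7.61%, 8.11% and 9.54%. It averaged 7.14% ± 1.94 (SD, n = 5), 1.30 points above DOCA (95% interval -1.74 to 4.36, exact permutation p = 0.325). The difference was 0.698 points without the finerenone library of 40267 nuclei and 2.11 points without the DOCA library of 8300. Its library of 48403 nuclei rose to 4.59% on this scale and no longer stood apart from the group. Spironolactone had 2.65%, 4.26%, 6.51%, 6.89% and 7.55%, a mean of 5.57% ± 2.05 (SD, n = 5) that differed from DOCA by -0.275 points (95% interval -3.40 to 2.82, exact permutation p = 0.881). This direction was not stable either, with 0.534 points without the DOCA library of 8300 nuclei, 0.455 and 0.0519 without the spironolactone libraries of 33683 and 13610, and 0.128 with these 2 libraries merged. The amiloride libraries had 2.97% and 6.77% and differed from DOCA by -0.978 points on average (exact permutation p = 0.667), by 0.921 or -2.88 points with only the higher or the lower of them kept, and by 0.494 points within the library sets. Finerenone exceeded spironolactone by 1.57 points (95% interval -1.67 to 4.95, exact permutation p = 0.246), the lowest p of the 25 tests that were planned, none of which passed. It was 0.843 points without the spironolactone library of 33683 nuclei and 2.21 points without the finerenone library of 48403. Of the 13 non-PT types, 7.69% had an unadjusted exact p under 0.05 for finerenone against DOCA, and 7.69% did not overlap there or for amiloride against DOCA, the fibroblasts not among them.

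**Figure D3:**
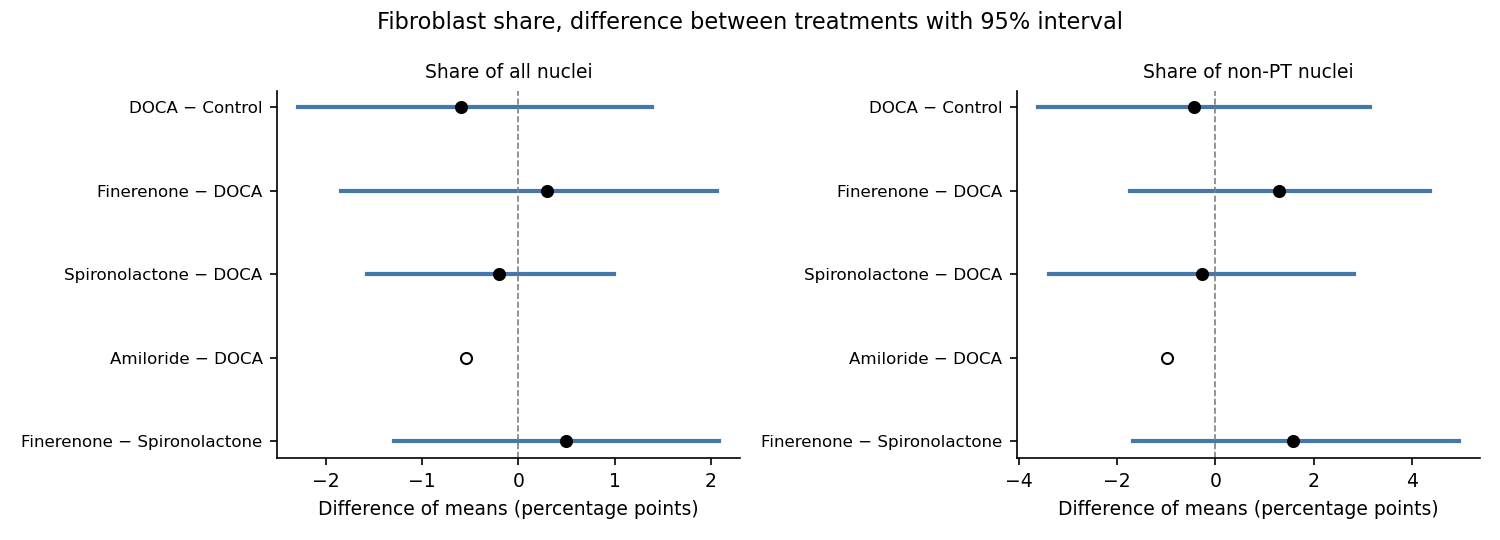
Difference of the mean fibroblast share (percentage points) for the 5 contrasts, among all nuclei (left) and non-PT nuclei (right), with lines for the 95% interval from the exact permutation test over libraries. All 8 intervals include 0, and amiloride (open circles, 2 libraries) has none.

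Pooling all nuclei of a treatment gave shares of 2.45% (control), 2.59% (DOCA), 2.60% (finerenone), 2.38% (spironolactone) and 2.12% (amiloride). On this scale DOCA was above control by 0.138 points, the opposite order to the means over libraries, and 18931 of the 46857 control nuclei came from the library with the lowest share. The pooled non-PT shares, 4.89% in control and 5.25% in DOCA, were in the opposite order to the means as well. They were 7.90% with finerenone, 4.28% with spironolactone and 4.82% with amiloride. Pooled finerenone thus lay farther above DOCA and spironolactone than in the means over libraries. The exact (Clopper-Pearson) 95% interval of the pooled control share, 2.31% to 2.59%, covers counting error only. Counting error amounted to an SD of 0.321 points in a control library (root mean square), and the SD between control libraries was 1.51 points. A single finerenone library, that of 40267 nuclei, held 1721 fibroblasts, 22.3% of the total. Over all libraries the fibroblast share had a coefficient of variation of 41.8%, the 6th lowest of the 16 types, between 25.1% for PCT and 148% for podocytes.

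Fibroblasts were then related to the other stromal types, beginning with myofibroblasts, of which there were 2879. The number of fibroblasts per myofibroblast separated the libraries by name rather than by treatment. In the 6 tagged libraries without the MO mark it was 1.09 (spironolactone), 1.29 (DOCA), 1.65 and 1.89 (finerenone), 2.23 (amiloride) and 2.69 (control). The 5 MO libraries had 4.41 to 7.20 and the 11 untagged libraries 5.08 to 11. Every one of these 16 libraries was thus above all 6 tagged libraries without the mark, whatever the treatment. On the log2 scale the means were 0.79 ± 0.49 (SD, n = 6), 2.36 ± 0.28 (SD, n = 5) and 3.08 ± 0.33 (SD, n = 11). The library set accounted for 88.8% of the variance of this log2 ratio over the 22 libraries and treatment for 7.45%, where groupings with no relation to the ratio would take 9.52% (3 sets) and 19.0% (5 treatments) on average. Since the sets were noticed after the values were seen, the average for 3 sets is no test of them. The myofibroblast share of all nuclei averaged 1.23% ± 0.960 in the 6 libraries, 0.645% ± 0.215 in the MO libraries and 0.387% ± 0.170 in the untagged ones, and the fibroblast share averaged 1.88% ± 1.35, 3.25% ± 0.770 and 3.13% ± 1.01. Either share alone overlapped between the sets: the myofibroblast share of 3 of the 6 libraries lay above every untagged library and that of the other 3 lay within their range, and the fibroblast share of the 6 libraries reached 4.27%. The part of library preparation or annotation in this difference was not tested.

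**Figure D4:**
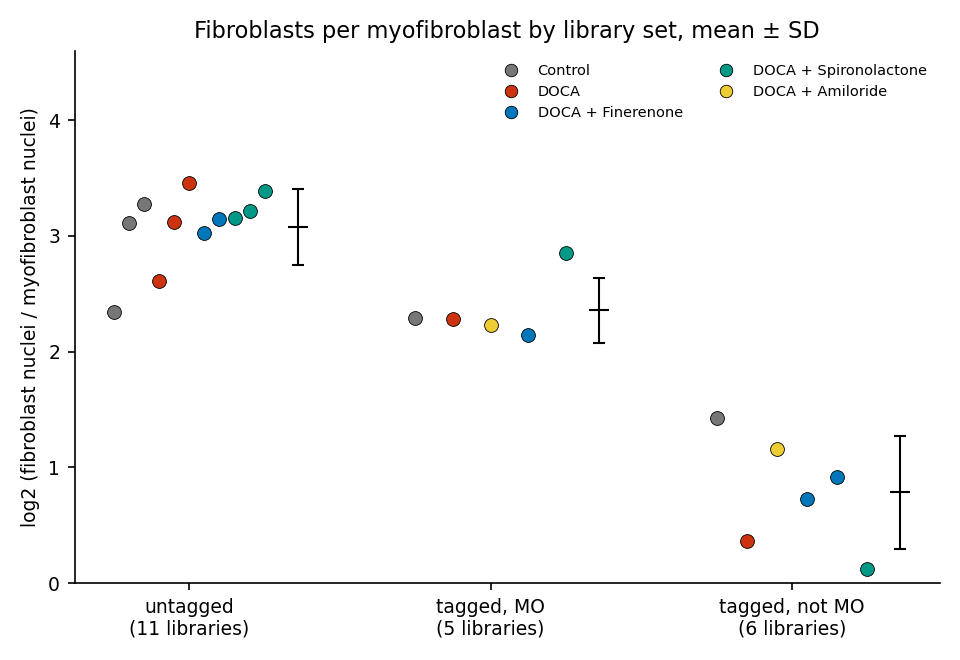
The log2 ratio of fibroblast to myofibroblast nuclei in each library, by library set, colored by treatment, with the mean ± SD beside the points. The 6 tagged libraries without the MO mark lie between 0.12 and 1.43 and all others between 2.14 and 3.46, while the treatments are mixed within each set.

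Between treatments, the log2 ratio of fibroblasts to myofibroblasts was 2.49 ± 0.74 in control, 2.37 ± 1.21 in DOCA, 1.99 ± 1.14 with finerenone and 2.55 ± 1.37 with spironolactone (SD, n = 5 each) and 1.69 ± 0.75 with amiloride (SD, n = 2). DOCA and control differed by -0.12 (95% interval -1.70 to 1.18, exact permutation p = 0.897), and the lowest exact p of the 5 contrasts was 0.468. Within the library sets finerenone exceeded DOCA by 0.11 in place of a difference of -0.38 (exact permutation within sets, p = 0.6). The difference of DOCA from control was again -0.12 within the sets (exact permutation p = 0.8), as the numbers of libraries from each set were equal in those groups. Its direction was not stable, from -0.39 to 0.38 when single libraries were left out.

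Endothelial cells, the lining of the renal vessels and capillaries, were the larger stromal type with 22227 nuclei. Fibroblasts per 100 endothelial nuclei were 10.2, 27.9, 31.9, 33.4 and 36.9 in control and 19.1, 27.7, 28.8, 36.02 and 57.4 in DOCA. Values with finerenone were 26.4, 27.6, 32.5, 34.7 and 92.4, those with spironolactone 18.6, 27.0, 27.6, 38.6 and 40.6, and those with amiloride 21.97 and 25.3. The highest and the lowest values both came from tagged libraries without the MO mark, the finerenone library of 40267 nuclei and the control library of 18931. Library set accounted for 0.199% of the variance of the log2 ratio and treatment for 13.7%, both below the averages for unrelated groupings given above. DOCA exceeded control by 0.30 on the log2 scale (95% interval -0.58 to 1.33, exact permutation p = 0.563), and the exact p of the other contrasts was 0.437 to 0.754. Without the control library of 18931 nuclei the difference of DOCA from control turned to -0.035.

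After these shares had been seen, 3 further measures were computed in the same 5 contrasts: the log2 ratio of fibroblasts to macrophages, the fibroblast percent of all stromal and immune nuclei, and the fibroblast percent of fibroblast, myofibroblast and endothelial nuclei. Of these 15 added tests, 1 had an unadjusted exact p under 0.05. There were 3.41, 1.47, 3.41, 3.10 and 1.04 fibroblasts per macrophage in the control libraries and 0.480, 1.08, 0.436, 2.06 and 0.420 in the DOCA libraries, in order of their number of nuclei. Thus 3 of 5 DOCA libraries lay below all control libraries and the other 2 lay within their range. The log2 ratio averaged 1.16 ± 0.80 in control and -0.47 ± 1.01 in DOCA (SD, n = 5 each), a difference of -1.63 (95% interval -2.93 to -0.31, exact permutation p = 0.0397). Its p was 0.198 adjusted over the 5 contrasts, 0.595 over the 15 added tests and 0.924 over all 40 tests. The smallest exact p that 5 libraries against 5 allow is 0.00794, so a single call could pass over 5 tests but not over 15 or 40. The difference was -1.63 with exact permutation within the library sets as well (p = 0.075), and -2.004 to -1.43 when any 1 of the 10 libraries was left out, none of which turned it. Leaving out any 1 of 6 libraries gave exact p = 0.0794 (the control libraries of 1238, 6629 and 14747 nuclei and the DOCA libraries of 1774, 8716 and 15167). The ratio also depends on the macrophages, which were 1.41% of all nuclei in control and 4.06% in DOCA (exact permutation p = 0.0238, 0.0762 adjusted over 16 types). The fibroblast shares were 3.31% and 2.71%, and neither type passed this test after adjustment.

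In the drug groups the log2 ratio to macrophages averaged 0.53 ± 1.25 with finerenone, -0.39 ± 1.05 with spironolactone (SD, n = 5 each) and 0.82 ± 1.47 with amiloride (SD, n = 2). Finerenone against DOCA differed by 1.00 (95% interval -0.65 to 2.57, exact permutation p = 0.198), and without the finerenone library of 9325 nuclei by 1.51 (unadjusted exact p = 0.0317), against 0.75 without that of 13679. The 4 contrasts other than DOCA against control had exact p of 0.198 to 0.881. Fibroblasts as a percent of stromal and immune nuclei averaged 18.1% ± 6.12 in control and 15.02% ± 5.20 in DOCA (exact permutation p = 0.389), and over the 5 contrasts p was 0.310 to 0.952. The difference of DOCA from control, -3.08 points, was -5.67 without the control library of 18931 nuclei (exact p = 0.0794) and -1.74 without that of 1238 (exact p = 0.651). Their percent of fibroblast, myofibroblast and endothelial nuclei averaged 20.7% ± 6.83 and 23.2% ± 7.41 (exact permutation p = 0.595), and over the 5 contrasts p was 0.452 to 0.683. This difference of DOCA from control was -0.470 points without the DOCA library of 8300 nuclei and 4.32 without that of 8716.

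**Figure D5:**
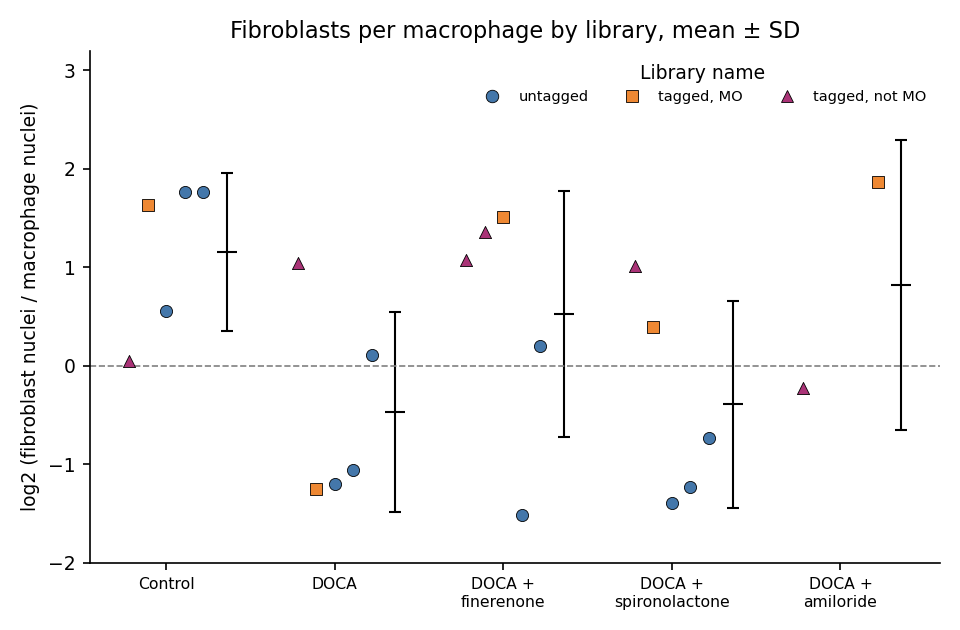
The log2 ratio of fibroblast to macrophage nuclei in each library by treatment, with the mean ± SD beside the points, symbols for the library set and a dashed line where both are equally many. Control libraries lie between 0.05 and 1.77, and 3 of the 5 DOCA libraries lie below them.

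Whether fibroblasts varied with injured tubule cells, macrophages or endothelial cells was examined over the 22 libraries, using the non-PT share of fibroblasts and denominators that do not contain them. With the iPT share of proximal tubule nuclei, Pearson's r was 0.122 (permutation p = 0.592) and Spearman's rho 0.0988 (permutation p = 0.663). With the macrophage share of the nuclei that were neither proximal tubule nor fibroblast, r was 0.0875 (permutation p = 0.699) and rho 0.136 (permutation p = 0.545). The endothelial share of the same nuclei gave r = 0.470 (permutation p = 0.0281, 0.0844 adjusted over these 3 relations) and rho = 0.406 (permutation p = 0.0622, 0.187 adjusted). Without the 2 libraries farthest from the median r was 0.273, 0.103 and 0.294, with permutation p of 0.243, 0.667 and 0.210, so the endothelial relation did not hold without them. Centred on the treatment means the endothelial r was 0.491 (permutation p = 0.0205, 0.0614 adjusted), and without the MO libraries it was 0.385 (permutation p = 0.128). Within the 11 untagged libraries the endothelial r was -0.299 and within the 11 tagged libraries 0.522, with permutation p of 0.377 and 0.102. The macrophage r was -0.485 in the untagged and 0.147 in the tagged libraries, with permutation p of 0.131 and 0.684. The macrophage rho was -0.573 and 0.473, with permutation p of 0.0706 and 0.147. None of the 3 relations passed after adjustment.

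Finally, the position of fibroblasts within their main group was compared between libraries. The median UMAP 2 of the main group was -4.60 ± 0.024 in the 6 tagged libraries without the MO mark, -4.34 ± 0.089 in the MO libraries and -4.40 ± 0.068 in the untagged ones (SD over libraries). The first lay between -4.64 and -4.58, and 15 of the other 16 libraries lay above -4.46, the exception being the spironolactone library of 759 nuclei with 21 fibroblasts, at -4.57. Library set accounted for 73.7% of the variance of this median and treatment for 5.02%. Treatment means were between -4.51 (amiloride) and -4.42 (control).

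The neighbors of each nucleus showed this too. Of the 30 nearest main-group neighbors of a fibroblast, 16.1% came from its own library where even mixing would give 9.22%, and in 21 of 22 libraries the own-library percent was above even mixing (median 1.61 times). These 2 percents are means over nuclei. The finerenone library of 40267 nuclei, with 22.3% of all fibroblasts, raised both, at 39.6% against 22.7%. Among neighbors from other libraries, those of the same set made up 40.4% against 28.3% under even mixing and were in excess in 22 of 22 libraries. Those of the same treatment made up 17.4% against 18.3% and were in excess in 12 of 22. The even-mixing value for treatments takes no account of the sets, so these percents do not show how far treatments mixed. Fibroblasts of different library sets did not mix evenly on the map, after the correction with Harmony that the authors applied.

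The 144 fibroblasts that lay apart were also unequal by set, at 8 of 3285 (0.244%) in the 6 tagged libraries without the mark, 85 of 2469 (3.44%) in the MO libraries and 51 of 1970 (2.59%) in the untagged libraries. The finerenone library of 40267 nuclei had 0 of 1721, which lowers the first percent. Averaged over libraries the percents were 0.612%, 3.46% and 1.88%. Single libraries overlapped between the sets, at 0 to 2.10%, 1.875% to 5.20% and 0 to 4.10%. By treatment, the percent of neighbors that were not fibroblasts averaged 1.63% ± 1.60 in control, 1.79% ± 1.58 in DOCA, 2.08% ± 1.96 with finerenone, 1.68% ± 1.53 with spironolactone (SD, n = 5 each) and 3.71% ± 2.25 with amiloride (SD, n = 2). The 5 contrasts had exact permutation p of 0.286 to 0.921. Some barcodes recurred between libraries. The 10 pairs of MO libraries shared 204 to 473 barcodes (2.01% to 3.12% of the smaller library), of which 3 in all were fibroblasts in both libraries. The other 221 pairs shared 0 to 563 barcodes (at most 2.10%), and 0 of them were fibroblasts in both. How many barcodes would recur by chance was not computed, and the cause of the recurrence was not tested.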

How the data were processed

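Whole-kidney snRNA-Seq of 22 rat samples was used. The authors aligned reads to rn6 with Cell Ranger (6.0.1 per the methods; the submitters' processing notes also list 3.0.2), including introns, used SoupX for ambient RNA and DoubletFinder for doublets, filtered nuclei by genes and mitochondrial percentage, merged them in Seurat (version 4.0.1 in the same notes, a later one in the methods), integrated libraries with Harmony and named clusters from markers. The deposited library, treatment and cell type are names given by the authors, and both deposited UMAP axes hold a unitless score. Gene values and RNA counts per nucleus were not analysed here. The members and lists were chosen with earlier results of these data known.

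Nuclei were counted per library (Python 3.11.15, pandas 2.3.3). Libraries (759 to 48403 nuclei) were compared by two-sided exact permutation tests on the difference of means, with 95% intervals from inverting the test. Shares of all types were tested in each contrast and adjusted by Benjamini-Hochberg. limma 3.58.1 on logit shares (0.5 added to counts) was an alternative. In total 40 contrasts of 8 measures were tested, 25 of them planned and 15 added after the shares were seen. Correlations used 100000 permutations, and neighbors scikit-learn 1.9.0. The tests were tested on simulated data. Each library was taken as 1 animal, as the library and sample numbers per treatment are equal, although library names were not matched to samples. Alternatives were other weights, scales, library subsets, strata and leaving out each library.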

Additional observations from a re-analysis of the deposited data

Results flagged for a closer look

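In 32 groups of 5 libraries (8 measures in 4 treatments), the highest or the lowest library was set against the others by Dixon's criterion at 95%, and 5 stood apart. Chance alone flags about 1 in 20 independent groups. The 8 measures share the same counts of nuclei, so these groups are not independent. The 5 flags, from 3 libraries, were not tested against that rate. The control library of 18931 nuclei had a non-PT fibroblast share of 1.54% where the next lowest control library had 6.58%, and a log2 ratio of fibroblasts to endothelial nuclei of -3.29 where the next was -1.84. The finerenone library of 40267 nuclei had a log2 ratio of fibroblasts to endothelial nuclei of -0.11, next to -1.53 in the nearest library, and fibroblasts were 37.2% of its fibroblast, myofibroblast and endothelial nuclei, next to 24.97%. The spironolactone library of 33683 nuclei had a log2 ratio of fibroblasts to myofibroblasts of 0.12, next to 2.85. All 3 libraries are tagged without the MO mark, and the part of that in their values was not tested.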

How the results depend on the processing

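Shares have 1 value per library and no gene values behind them, libraries were not matched to weeks, and amiloride has 2 libraries, which limits every comparison. Of 224 alternatives other than leaving out a library, 183 kept the direction and, where they had a test, the side of the 0.05 threshold. Another 28, with a test, turned the direction. Values from pooled nuclei have no test, and 6 of them had the opposite sign. None of the 224 brought a value past the threshold, but a part of them could not have done so. With 2 amiloride libraries against 5 the exact p cannot go below 0.0952. Contrasts in tagged or untagged libraries alone have too few libraries for an exact p under 0.05. No paired analysis was possible because library names carry no replicate number of the samples, and name stems shared across treatments, which no source gives as a pairing, were not used as one. The RNA counts per nucleus, the filter on genes per nucleus and the 6-week subset were not run.

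Reversed differences that had a test all had p of at least 0.6 in the contrasts. The cause of the reversals was not tested. For the share of all nuclei, DOCA against control was 0.293 points and spironolactone against DOCA 0.338 points in tagged libraries. Finerenone against DOCA was -0.162 without MO libraries, -0.101 in untagged libraries and -0.046 log2 odds by logit shares with the permutation test or limma. For the non-PT share, DOCA against control was 0.189 without MO libraries, 0.183 in tagged libraries, 0.0374 with 2 control libraries of a common name stem merged (chosen after seeing the data) and 0.030 log2 odds by logit shares with the permutation test or limma. Finerenone against DOCA was -0.0894 in untagged libraries, spironolactone against DOCA 0.724 in tagged libraries, and amiloride against DOCA 0.494 in tagged libraries and within the name tags or sets. Merging 2 spironolactone libraries of a common name stem (also chosen after seeing the data) gave 0.128 for spironolactone against DOCA. Pooled nuclei gave DOCA against control as 0.138 points for the share of all nuclei and 0.351 for the non-PT share, the log2 ratio to myofibroblasts as -0.38 for spironolactone and 0.12 for amiloride against DOCA, and the percent of stromal and immune nuclei as 0.834 and 0.440 for the same contrasts. They moved finerenone against spironolactone to 3.62 points in the non-PT share. The log2 ratio to myofibroblasts was 0.11 within sets for finerenone and 0.37 within tags or sets for amiloride, against DOCA. Without MO libraries, the percent of neighbors that were not fibroblasts was -0.423 for finerenone against DOCA and -0.0699 against spironolactone.

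Of the measures added later, the log2 ratio to macrophages in DOCA against control lost its unadjusted call without MO libraries (-1.31, p = 0.143) and with permutation within tags (-1.63, p = 0.05) or sets (-1.63, p = 0.075), and spironolactone against DOCA turned to -0.31 without MO libraries. The fibroblast percent of stromal and immune nuclei was 0.518 for amiloride against DOCA within tags or sets. Library sets as strata and the split of the correlations by tag were likewise chosen after seeing the data. In untagged libraries r was -0.0611 with iPT, -0.485 with macrophages and -0.299 with endothelial cells. The endothelial r, 0.470 over all libraries, lost its unadjusted call without the 2 farthest libraries (0.294) and without MO libraries (0.385). In the 11 tagged libraries r was higher (0.522), with a permutation p of 0.102.

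When single libraries were left out, the differences were, for the share of all nuclei, -0.0373 to 0.888 points (finerenone against DOCA), -0.432 to 0.228 (spironolactone) and -1.43 to 0.329 (amiloride), and for the non-PT share -1.62 to 0.0708 (DOCA against control), -0.768 to 0.534 (spironolactone) and -2.88 to 0.921 (amiloride). The log2 ratio to myofibroblasts ranged from -0.39 to 0.38 (DOCA against control) and -0.32 to 0.78 (spironolactone), and that to endothelial nuclei from -0.035 to 0.48, -0.069 to 0.47 (finerenone) and -0.29 to 0.11. The percent of other neighbors ranged from -0.426 to 0.737 (DOCA against control), -0.514 to 0.875 (finerenone), -0.477 to 0.476 (spironolactone) and -0.400 to 0.909 (finerenone against spironolactone). For macrophages the log2 ratio ranged from -2.004 to -1.43, 0.75 to 1.51 (finerenone) and -0.27 to 0.46 (spironolactone). The percent of stromal and immune nuclei ranged from -5.67 to -1.74 (DOCA against control), -2.04 to 1.53 (spironolactone) and -2.89 to 2.67 (amiloride), and that of fibroblast, myofibroblast and endothelial nuclei from -0.470 to 4.32, -1.25 to 4.76 (finerenone) and -3.56 to 1.23.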
